A study of Homo sapiens with 56 samples.

Results

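EFO21 is an established ovarian cancer cell line, and its 2 arrays were compared with those of the 27 other ovarian cancer lines in a set of 56 arrays. The EFO21 arrays were taken by the label alone, so that no measured value chose them. EFO21 was grown in RPMI 1640 with 20% fetal bovine serum and non-essential amino acids, and each of its arrays is 1 extract of total RNA. The other lines are A2780, COLO720E, HEY, HEYC2, PEO1, OVCAR2, OVCAR3 and OVCAR5 in RPMI 1640, CAOV3, CH1, DOV13, OVCA420, OVCA432, OVCA433, SKOV3, TYKNU, OAW28 and OAW42 in DMEM, FUOV1, JHOS2, JHOS3, JHOS4, OV17R, OV56 and OV7 in a mixture of DMEM and F12, TOV112D in equal parts of MCDB105 and M199, and UWB1.289 in equal parts of RPMI 1640 and MEGM. Insulin was added for OVCAR2, OVCAR3, OVCAR5, OAW28 and OAW42, hydrocortisone and insulin for OV17R, OV56 and OV7, and non-essential amino acids for the 3 JHOS lines, so that no other line shared the full medium of EFO21. Serum was at 20% for OVCAR3 also, at 3% for UWB1.289, at 5% for OV17R, OV56 and OV7, and at 10% for the other lines. The labels give no treatment, genotype or histology of a line. The study placed such lines along the epithelial-mesenchymal transition (EMT) and asked how the transcription factor GRHL2 bears on it. 1 array each of HEYC2, OV56 and OVCA420 was left out, which left 51 arrays of the other lines. With values centred gene by gene, the most similar array of each came from another of these 3 lines (r = 0.904 to 0.919), and the duplicate was far from it (0.0603 to 0.198).

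Epithelial cells hold together through E-cadherin (CDH1) at adherens junctions, through claudins at tight junctions and through desmosomes on a keratin scaffold. In EMT, repressors of the ZEB, SNAI and TWIST families shut down these genes while N-cadherin (CDH2), vimentin (VIM) and matrix genes come up, and GRHL2 is a factor that holds the epithelial program in place. EPCAM is a surface glycoprotein of epithelia and of most carcinomas, and in many carcinomas it is lost or kept together with E-cadherin.

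Each gene was read as a log2 intensity, so that a difference of 1 is a factor of 2, and levels were compared within a gene and never between genes. The EFO21 arrays resembled each other with r = 0.993 over 18377 genes (0.896 with values centred on each gene's median). Their median difference was 0.153 in size, and 42 genes (0.229%) differed by 1 or more. The level of EFO21 was set against the mean of the 27 line means in a limma fit with Benjamini-Hochberg adjustment over all genes. A gene is called higher or lower here where its adjusted p was under 0.05 and its difference at least 1. The p-values measure the spread between the arrays of a line, which may be technical since nothing says that they came from separate cultures, and 2 arrays for a line set how precise a value can be. By centred values the most similar line was OAW42 (r = 0.187), then UWB1.289 (0.186), and the least similar was HEY (-0.11). These correlations across genes share 1 platform and serve as a description.

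EFO21 kept EPCAM while CDH1 and GRHL2 were low. EPCAM measured 10.65 and 11.04 in EFO21, and the other lines ran from 4.31 in HEYC2 over a median of 8.92 to 14.53 in PEO1. EFO21 held rank 6 of 28 lines, and it was higher than the mean of the others by 1.95 ± 0.52 (SE; limma, adjusted p = 0.00294, where 5.9% of all genes were called in either direction). CDH1 measured 6.16 and 6.21 in EFO21, and the other lines ran from 3.88 in SKOV3 over a median of 7.17 to 11.69 in PEO1. EFO21 was rank 25 for CDH1, lower by -1.46 ± 0.33 (limma, adjusted p = 0.000559). GRHL2 measured 5.29 and 5.55 in EFO21, and the other lines ran from 4.02 in OVCAR2 over a median of 5.99 to 10.53 in PEO1. EFO21 was rank 24 for GRHL2, lower by -1.17 ± 0.25 (limma, adjusted p = 0.000266). None of the 3 genes lay outside the range of the other lines. The 3 genes and their directions were named with earlier results of these data known. Their p-values set the differences against the spread between arrays of a line and are no independent test of the pattern. Without array 2 of EFO21 the EPCAM difference was 1.75 and its call was lost (limma, adjusted p = 0.0744). Against only the 8 other lines in RPMI 1640 the EPCAM difference was 2.64, that of CDH1 -1.23 and that of GRHL2 -0.88, which is under the minimum of 1. With each line reduced to 1 value, none of the 3 passed (limma, adjusted p of 1 for each).

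**Figure D1:**
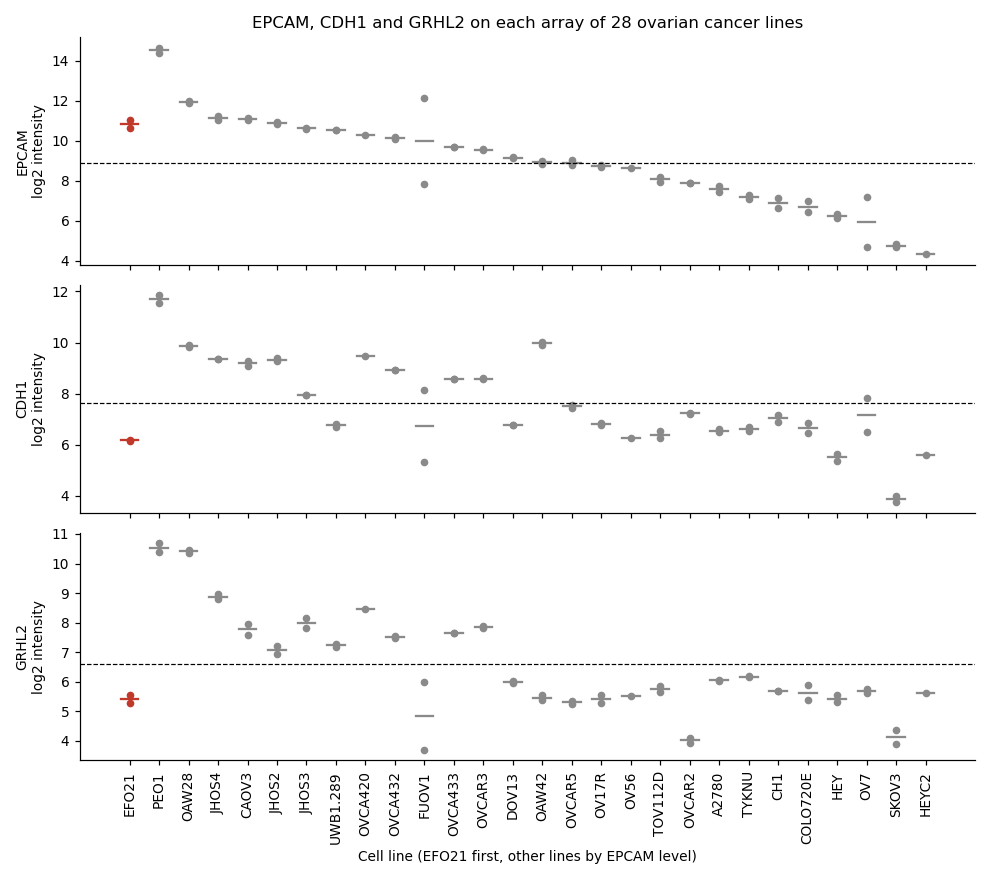
EPCAM, CDH1 and GRHL2 (y axis, log2 intensity) on each array used, for EFO21 (red) and then the 27 other lines in order of their EPCAM level; points are arrays, short bars line means and the dashed line the mean of the other lines. EFO21 lies above the dashed line for EPCAM (10.84) and below it for CDH1 (6.18) and GRHL2 (5.42), and the duplicates of FUOV1 and OV7 lie far apart.

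The plot of EPCAM against CDH1 shows the combination. Among the lines with EPCAM at 10 or more, EFO21 had a CDH1 level of 6.18 and a GRHL2 level of 5.42. In the 9 other lines past that EPCAM level, CDH1 was at least 6.76 (UWB1.289) with a median of 9.33, and GRHL2 at least 7.07 (JHOS2) with a median of 7.99. FUOV1, whose mean EPCAM level of 9.97 lies just under that cutoff, had a like combination, with CDH1 at 6.73 and GRHL2 at 4.83, which is lower than in EFO21. EPCAM minus CDH1, each taken as the deviation from the mean of the other lines, was 3.41 in EFO21 and next 2.52 in UWB1.289 and 1.99 in FUOV1. EPCAM minus GRHL2 was 3.12 in EFO21 and 2.84 in FUOV1. The cutoff of 10 and both differences were chosen with the values in view and carry no test. The duplicates of FUOV1 lay far apart, at 7.82 and 12.13 in EPCAM, 5.31 and 8.15 in CDH1 and 3.69 and 5.98 in GRHL2. Those of OV7 did so in EPCAM (4.69 and 7.18) and CDH1 (6.51 and 7.84). The arrays of these lines enter the spread that sets each p-value. Without both lines the EFO21 differences were 1.87 for EPCAM, -1.52 for CDH1 and -1.28 for GRHL2, an alternative added after seeing the data. The adjusted p in that limma fit was 1.92e-16 for EPCAM, 1.82e-17 for CDH1 and 4.79e-12 for GRHL2.

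**Figure D2:**
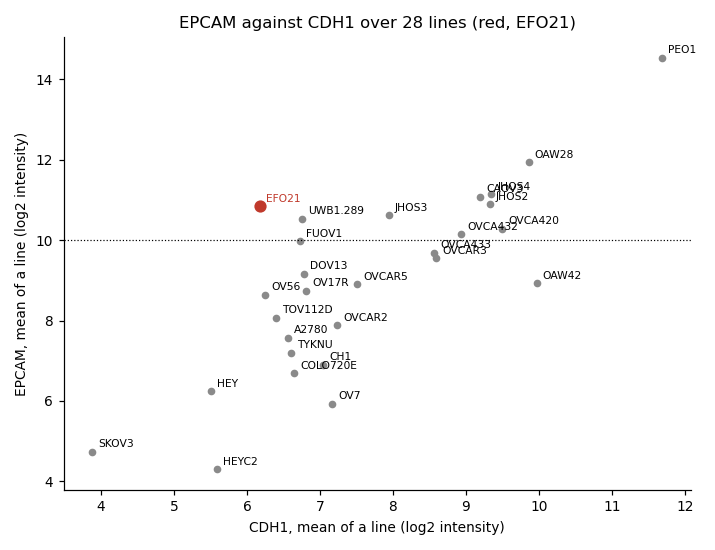
Mean EPCAM level (y axis, log2 intensity) against mean CDH1 level (x axis, log2 intensity) of 28 lines, 1 point for each, with EFO21 in red and a dotted line at an EPCAM level of 10. EFO21 (CDH1 6.18, EPCAM 10.84) is the leftmost point above that line, UWB1.289 (6.76, 10.53) is the next above it, and FUOV1 (6.73, 9.97) lies just under it.

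The other junction genes did not move as a group. Of 21 adherens and tight junction genes on the list, 3 were higher and 3 lower (3.74% and 2.16% of all genes), with a median difference of -0.26 (-0.02 over all genes). CLDN1, a claudin that seals tight junctions, measured 13.10 and 12.92 in EFO21, against 4.65 to 13.19 and a median of 10.42 in the other lines (difference 3.08 ± 0.19, limma, adjusted p = 1.02e-13, rank 2). CLDN16, a claudin of ion-selective junctions, was higher by 3.52 and MARVELD2, which sits at tricellular contacts, by 1.36. The genes lower beside CDH1 were P-cadherin CDH3 (-1.40) and CLDN7 (-1.35). The catenins that tie cadherins to actin lay closer to the other lines, CTNNA1 at 0.26 and CTNNB1 at -0.65, and neither was called.

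Epithelial surface genes were split as well. Of 15 measured, 3 were higher and 5 lower (3.74% and 2.16% of all genes). The mucin MUC1 (1.27) and the membrane protease TMPRSS4 (2.04) were higher beside EPCAM. The tetraspanin CD9 (-1.77), the protease inhibitor SPINT2 (-1.80), the protease PRSS8 (-1.17), the recycling GTPase RAB25 (-1.15) and CDCP1 (-1.03) were lower. 3 of these calls were lost when EFO21 kept only 1 array, MUC1 without array 2 (1.01, limma, adjusted p = 0.157), CDCP1 without array 2 (-0.93, under the minimum) and RAB25 without array 1 (-1.26, adjusted p = 0.117) or array 2 (-1.04, adjusted p = 0.222). Among 11 epithelial transcription and splicing factors KLF5 was higher (1.33) and GRHL2 was the one called lower. GRHL1 differed by -0.94, ESRP2 by -0.55, EHF by 0.97 and ELF3 by 0.62, and none of these 4 was called. The lowest difference in these epithelial lists was that of a keratin. KRT7, a simple-epithelium keratin typical of ovarian carcinoma, measured 6.48 and 6.53 in EFO21, against 5.94 in OAW42, 10.38 as the median and 13.33 in PEO1. The KRT7 difference was -3.23 ± 0.19 (limma, adjusted p = 4.54e-14) at rank 27 of 28. KRT8 (12.12 and 12.32) and KRT18 (12.37 and 12.25), the common keratin pair of simple epithelia, stood 0.22 and 0.41 above the others' means and were not called. Of the desmosome genes, the plaque protein PKP2 was higher (1.95) and the cadherin DSC2 lower (-1.53).

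Mesenchymal genes did not come up together either. None of 9 EMT-inducing transcription factors was called higher. SNAI2 measured 5.56 and 5.43 in EFO21, against 4.26 to 11.57 and a median of 7.79 in the other lines (difference -2.11 ± 0.17, limma, adjusted p = 2.73e-12), and TCF4 was lower too (-1.86). ZEB1, the direct repressor of CDH1, measured 7.52 and 7.05 in EFO21 at rank 9 (difference 0.71, not called), and ZEB2, SNAI1 and TWIST1 differed by -0.77, 0.21 and -0.45 without a call. Of 14 mesenchymal cytoskeleton and cadherin genes, 5 were higher and 2 lower (3.74% and 2.16% of all genes). Their median difference was 0.65 (-0.02 over all genes), so more of this list was higher than lower. TAGLN, an actin-binding protein of smooth muscle, measured 11.47 and 11.66 in EFO21, against 5.37 in OVCAR2, a median of 6.83 and 11.54 in CH1. Its difference of 4.01 ± 0.11 (limma, adjusted p = 1.98e-26) put EFO21 at rank 1, although an array of CH1 (11.58) lay above the lower EFO21 array. CDH2 measured 10.67 and 10.77 in EFO21 (difference 1.81), and the kidney-type cadherin CDH6 measured 11.94 on both arrays (difference 3.63). SPARC (1.97) and TPM1 (1.10) were the other genes higher. Fibronectin FN1 went the other way, with 6.81 and 6.91 in EFO21, against 5.13 to 13.81 and a median of 9.81 in the other lines (difference -2.82 ± 0.10, limma, adjusted p = 7.71e-24). Galectin LGALS1 was lower (-1.03), and VIM measured 9.10 and 9.25 in EFO21, with a difference of -0.82 at rank 20 that was not called.

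Over all 18377 genes, 687 (3.74%) were called higher in EFO21 and 397 (2.16%) lower, and 41.7% had an adjusted p under 0.05 without regard to size. Both EFO21 arrays lay above every array of the other lines for 218 genes (1.19%) and below every one for 107 (0.582%). Of these, 147 (0.8%) were also called higher and 54 (0.294%) called lower. Such counts were not unusual here. Over the 25 lines with 2 arrays used, the genes above every other array ran from 112 in OVCA433 to 585 in FUOV1, where EFO21 shared rank 20 with OV7, and the genes below from 74 to 656, where it stood at rank 18. The gap to the nearest other array reached 1 for 6 genes above and for 1 gene below. Those above were PLVAP (1.52), HABP2 (1.44), LCP1 (1.40), KRT27 (1.08), JMY (1.03) and NCOA7 (1.02), the last of which falls outside the naming rule and was chosen after its values were seen.

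The 20 largest of the differences above every other array were led by MMP7, LCP1, EDN1 and ITGB3. MMP7 (matrilysin, an epithelial matrix metalloproteinase) measured 10.44 and 10.66 in EFO21, against 3.93 in OVCAR2, a median of 4.59 and 9.45 in DOV13. The MMP7 difference was 5.08 ± 0.15 (limma, adjusted p = 6.49e-26), the largest of these 20. LCP1 (L-plastin, an actin bundler of blood cells that carcinomas often gain) measured 10.989 and 11.001 in EFO21, against 4.35 to 9.56 and a median of 6.11 (difference 4.92 ± 0.15, limma, adjusted p = 2.14e-25). The highest other line was OVCA433. EDN1, the precursor of the vasoconstrictor endothelin, measured 11.66 and 11.26 in EFO21, against 5.06 to 10.53 and a median of 6.89 (difference 4.22). Integrin beta 3 (ITGB3), which pairs with integrin alpha V, measured 10.82 and 11.01 in EFO21, against 4.97 to 10.47 and a median of 6.43 (difference 3.66). These 4 genes were high on both EFO21 arrays, and none of the other lines reached them, though the nearest other array came within 0.98, 1.40, 0.67 and 0.24 of the lower EFO21 array for MMP7, LCP1, EDN1 and ITGB3.

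Other adhesion and surface genes of the same group were CLDN11 (3.48), the junctional adhesion molecule JAM3 (3.43), the mucin-type glycoprotein PDPN (3.14), the syndecan SDC2 (2.56) and the heparan sulfatase SULF2 (2.79). Signalling genes were the G protein subunit GNG11 (3.42), the ligand BMP6 (2.82), the adaptor NEDD9 (2.57) and ID4 (2.67), an inhibitor of helix-loop-helix factors. HHEX, a homeobox factor of blood and liver development, measured 10.83 and 10.85 in EFO21, against 5.54 to 10.16 and a median of 7.22 (difference 3.31). Enzymes were the glucuronosyltransferase UGT2B7 (3.29) and nicotinamide methyltransferase NNMT (2.99). NNMT measured 10.29 on both EFO21 arrays, and an array of OV7 came close to it (10.24). The remaining ones were the actin regulator JMY (2.73), the class II molecule HLA-DPA1 (2.72), the lysosomal protein LAPTM5 of blood cells (2.71) and TPD52L1 (2.70). The arrays of EFO21 stood apart for HLA-DPA1, at 7.95 and 9.14, and both lay above 7.81, the highest other array.

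**Figure D3:**
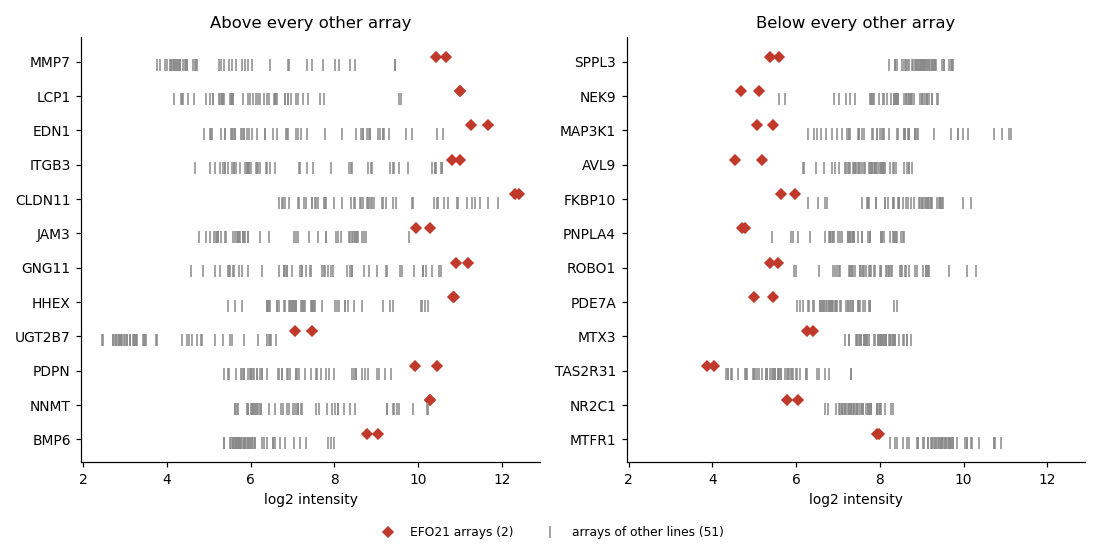
Log2 intensity (x axis) of the 12 largest differences among genes above every other array (left) and below every other array (right) that were also called; red diamonds are the 2 EFO21 arrays and grey ticks the 51 arrays of the other lines. SPPL3 has the widest gap, with EFO21 at 5.59 and 5.38 and no other array under 8.21.

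Genes below every other array were led by SPPL3, an intramembrane protease of the Golgi that trims glycosyltransferases. SPPL3 measured 5.59 and 5.38 in EFO21, against 8.28 in OVCAR5, a median of 9.06 and 9.72 in OAW28. The difference was -3.55 ± 0.07 (limma, adjusted p = 6.85e-31), and the nearest other array lay 2.62 higher. SPPL3 was the only gene called lower (0.00544%) when each line counted as 1 value (limma, adjusted p = 1.96e-06). NEK9, a mitotic kinase, measured 4.69 and 5.11 in EFO21, against 5.67 to 9.37 and a median of 8.41 (difference -3.41). FUOV1 was the next lowest line for NEK9. MAP3K1, a kinase upstream of JNK, measured 5.06 and 5.44 in EFO21, against 6.35 to 11.11 and a median of 8.24 (difference -3.09). AVL9 (-2.84), the collagen chaperone FKBP10 (-2.80), the lipase PNPLA4 (-2.61) and the guidance receptor ROBO1 (-2.58) came next. The further 13 of the 20 named genes differed by -1.44 (DDT) to -1.81 (PDE7A), among them the histone demethylase KDM5A (-1.56), the centromere protein CENPO (-1.52) and the importin KPNA3 (-1.46).

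With each line reduced to 1 value, 13 genes were higher (0.0707%). PLVAP, a diaphragm protein of endothelial vesicles, measured 8.39 and 8.36 in EFO21, against 6.19 to 6.70 and a median of 6.41 (difference 1.94, limma over lines, adjusted p = 1.59e-08). HABP2, a plasma serine protease, measured 7.18 and 7.27 in EFO21, against 4.93 to 5.57 and a median of 5.29 (difference 1.93, limma over lines, adjusted p = 1.47e-08). KRT27, a hair-follicle keratin, measured 6.32 and 6.49 in EFO21, against 4.36 to 4.92 (difference 1.78, limma over lines, adjusted p = 6.06e-08). In all 3 the other lines lay within a narrow band, and EFO21 lay clear of it. The 10 others were LRRC7 (2.45, other lines 3.76 to 5.75), PADI3 (2.18, other lines 5.39 to 7.27), NMUR2 (1.92, other lines 4.54 to 5.97), BEST1 (1.55), IL2RB (1.27), SELP (1.19), NLRP4 (1.18), IL2RG (1.14), TMEM252 (1.08) and LYPD2 (1.01). These 13 genes were named for passing that fit, after their values were seen. IL2RB was the one of them whose EFO21 arrays (6.65 and 7.14) did not both lie above every other array, and NLRP4 (4.78 and 5.78) had the widest gap between the EFO21 arrays. Without array 2 of EFO21 the differences of NLRP4 (0.68), TMEM252 (0.80) and LYPD2 (0.97) were under the minimum.

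More inflammatory genes were higher than lower. Of 29 measured chemokines and cytokines 8 were higher and none lower (3.74% and 2.16% of all genes), with a median difference of 0.34. IL1A, the alarm cytokine interleukin 1 alpha, measured 11.28 and 10.02 in EFO21, against 2.81 in OVCAR3, a median of 4.34 and 10.76 in OVCAR5. The IL1A difference was 5.16 ± 0.18 (limma, adjusted p = 5.67e-23), and both EFO21 arrays lay far above the median line though apart from each other. CXCL8, which attracts neutrophils, measured 10.20 and 9.29 in EFO21, against 5.20 to 10.48 and a median of 6.85 (difference 2.71). CXCL1, a ligand of the same receptor, measured 11.29 and 11.01 in EFO21, against 5.64 to 11.31 and a median of 9.11 (difference 2.30). OV56 stood above EFO21 for CXCL1, CXCL8 and CXCL5. The other members called were IL18 (2.42), IL6 (1.69), IL1B (1.65), the feedback inhibitor TNFAIP3 (1.54) and CXCL5 (1.11, and 0.97 without array 1 of EFO21). The related chemokine CXCL2 measured 6.52 and 5.99 in EFO21 (difference 0.13, not called), and CXCL3 measured 5.68 and 5.64 (difference 0.19, not called).

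The chemokine promoters are shown because genes that were high and genes that were not share the same short sequence. Many of these genes answer to NF-kappa B, and the letters GGAATTTCC, one form of its binding site, were searched on both strands. The windows of RefSeq (GRCh38.p14) reach from 250 bases before the start site to 50 after it, and 0.461% of 35116 windows hold these letters. Of the members with a window, 3 of 7 called ones (CXCL1, CXCL5 and CXCL8) and 6 of 14 others (CXCL2, CXCL3, CXCL6, CXCL10, CXCL11 and NFKBIA) hold them, and several of these genes are close relatives. The letters and these members were chosen with the values in view. In CXCL1 (chr4:73869143-73869442, plus strand) the site starts 78 bases before the start site, in CXCL2 (chr4:74099146-74099445, minus strand) 77 and in CXCL8 (chr4:73740319-73740618, plus strand) 91. The windows read 5′ to 3′ along the gene, with the site in capitals.
CXCL1: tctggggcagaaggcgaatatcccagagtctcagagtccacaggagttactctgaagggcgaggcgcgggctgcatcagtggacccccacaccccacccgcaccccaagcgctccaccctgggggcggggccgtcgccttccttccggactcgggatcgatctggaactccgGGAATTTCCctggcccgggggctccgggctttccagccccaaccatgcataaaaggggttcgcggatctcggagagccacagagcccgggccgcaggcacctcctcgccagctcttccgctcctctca
CXCL2: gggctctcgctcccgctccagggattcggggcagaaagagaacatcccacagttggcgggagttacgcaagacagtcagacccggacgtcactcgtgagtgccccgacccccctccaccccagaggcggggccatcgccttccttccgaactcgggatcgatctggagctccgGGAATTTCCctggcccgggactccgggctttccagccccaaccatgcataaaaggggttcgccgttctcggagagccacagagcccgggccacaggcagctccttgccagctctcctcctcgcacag
CXCL8: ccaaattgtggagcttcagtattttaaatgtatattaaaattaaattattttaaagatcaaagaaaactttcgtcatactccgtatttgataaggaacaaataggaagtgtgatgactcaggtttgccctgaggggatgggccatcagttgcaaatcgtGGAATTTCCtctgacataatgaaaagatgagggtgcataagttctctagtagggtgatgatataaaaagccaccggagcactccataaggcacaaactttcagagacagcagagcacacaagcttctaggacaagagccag
The searched letters are the same in all 3 windows by the choice of the search, while the bases on either side of them differ in CXCL8. They lie at nearly the same distance in CXCL1 and CXCL2. CXCL1 was higher in EFO21 by 2.30 ± 0.14 and CXCL2 differed by 0.13 ± 0.15 (limma, adjusted p = 0.565). The part of the site in these differences was not tested. A match of letters is no evidence of binding, and no binding was measured here.

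More interferon-stimulated and antigen-presentation genes were higher than lower as well. Of 32 interferon-stimulated genes 9 were higher and none lower, with a median difference of 0.66, and of 17 antigen-processing genes 6 were higher and none lower, with a median of 0.72, where 3.74% of all genes were higher and 2.16% lower. GBP2, a guanylate-binding protein, measured 6.46 and 6.47 in EFO21, against 3.92 to 6.18 and a median of 4.98 (difference 1.36). It lay above every other array, by 0.04. BST2 (1.32), SAMD9 (1.30), IFI44L (1.20), IFIT2 (1.15) and the RNA sensor IFIH1 (1.15) were called too. Beside HLA-DPA1 stood its partner chain HLA-DPB1 (1.71), the trimming peptidases ERAP2 (2.65) and ERAP1 (1.19), the immunoproteasome subunit PSMB8 (1.23) and beta 2 microglobulin B2M (1.09). The B2M difference was 0.88, under the minimum, without array 2 of EFO21.

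Some amino acid response genes were higher, while the transcript of their factor ATF4 was not called. Of 20 genes of this list, which holds the stress factor ATF4 and genes it is known to induce, 6 were higher and none lower, with a median difference of 0.73 (3.74% and 2.16% of all genes). DDIT3 (CHOP) measured 10.56 and 10.38 in EFO21, against 6.67 in CH1, a median of 8.57 and 10.39 in A2780 (difference 2.00 ± 0.12, limma, adjusted p = 1.24e-16, rank 1). The cystine transporter SLC7A11 measured 11.86 and 11.74 in EFO21, against 6.70 to 12.32 and a median of 9.04 (difference 2.80). SESN2 (1.75), CHAC1 (1.60), the asparagine synthetase ASNS (1.40) and TRIB3 (1.15, and 0.92 without array 1 of EFO21) were also higher. The ATF4 transcript itself measured 8.06 and 7.85 in EFO21, 0.01 above the others' mean. SESN2 belongs also to the p53 targets, where 4 of 19 genes were higher, the others being GDF15 (2.21), SESN1 (1.94) and the death receptor TNFRSF10B, whose call was lost without array 1 of EFO21 (0.80). Of 22 sterol and fatty acid genes 4 were lower and none higher (2.16% and 3.74% of all genes), with a median difference of -0.41. They were the elongase ELOVL6 (5.81 and 6.13 in EFO21, difference -1.95), MSMO1 (-1.69, and -0.75 against the lines in RPMI 1640 alone), the desaturase SCD (-1.31) and the synthase FASN (-1.09, rank 28). FASN differed by -0.79 against the lines in RPMI 1640 alone and by -0.94 without array 1 of EFO21, both under the minimum, and SCD by -0.91 without array 1.

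**Figure D4:**
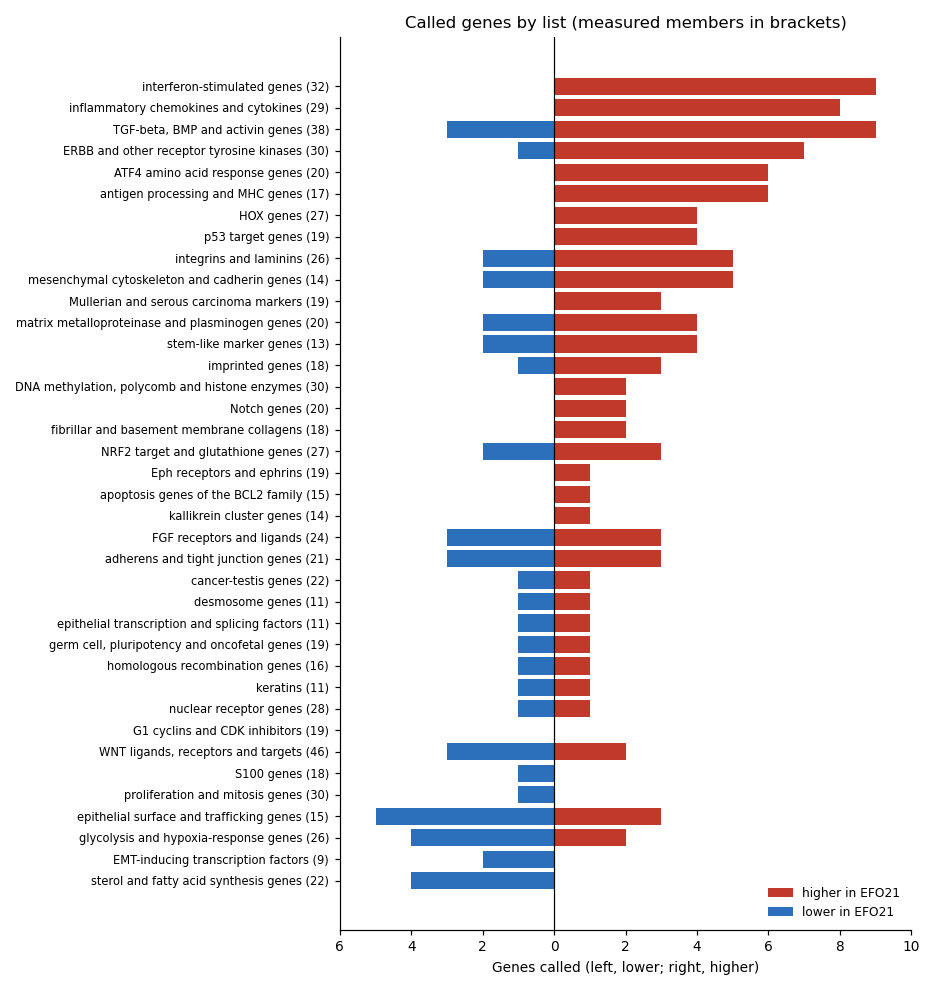
Number of called genes (x axis) that were higher (red, right of 0) or lower (blue, left of 0) in EFO21 for 38 lists of genes, each with its number of measured members in brackets. Interferon-stimulated genes show 9 higher and none lower, and sterol and fatty acid genes 4 lower and none higher.

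Matrix and integrin genes were mixed. Of 20 matrix metalloproteinase and plasminogen genes 4 were higher and 2 lower (3.74% and 2.16% of all genes). Beside MMP7 these were MMP10 (2.26), the gelatinase MMP2 (2.23) and MMP24 (1.22) on the high side, and the urokinase receptor PLAUR (-1.14) and MMP16 (-1.03, and -0.95 without array 2 of EFO21) on the low side. Of 26 integrins and laminins 5 were higher and 2 lower, with LAMA4 (2.15), ITGB8 (1.61) and ITGA5 (1.40) beside ITGB3, against the epithelial integrin ITGB6 (-1.81, and -0.58 against the lines in RPMI 1640 alone) and laminin LAMB3 (-1.38). The basement membrane collagens COL4A1 (2.14) and COL4A2 (1.46), which form 1 heterotrimer, were the 2 of 18 collagens called. TFPI2, a protease inhibitor of the matrix, measured 12.19 and 12.20 in EFO21, against 4.95 to 12.17 and a median of 8.40 (difference 3.91, rank 1). Both EFO21 arrays of TFPI2 were near equal, and UWB1.289 was the highest other line.

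Growth factor and receptor families differed in how many members were called, where 3.74% of all genes were higher and 2.16% lower. Of 38 genes of the TGF-beta, BMP and activin pathways 9 were higher and 3 lower. The ligands BMP4 (9.62 and 10.12 in EFO21, difference 2.86), BMP7 (2.84), BMP6 (2.82), GDF15 (2.21) and TGFB2 (1.79) were higher, and so were the BMP antagonist NOG (2.05), the receptor TGFBR2 (1.84), ID2 (1.37, and 0.94 without array 2 of EFO21) and ID4. The activin subunit INHBA (-1.27), its antagonist FST (-1.43) and the BMP antagonist GREM1 (-1.35) were lower. In this list TGFBR2, ID2 and the 3 lower genes were named after their values were seen. Of 30 receptor tyrosine kinases and ERBB ligands 7 were higher and 1 lower. These included the ligands EREG (2.52) and NRG1 (1.68) and the receptors ERBB4 (2.13), MET (1.85) and IGF1R (1.56), and KITLG was lower (-1.72). EGFR differed by 0.02 and ERBB2 by 0.31, without a call. Of 46 WNT genes 2 were higher, 3 lower and 41 not called. WNT7A (2.19) and FZD6 (1.31) were higher, and the antagonists DKK1 (-2.71) and SFRP1 (-1.09) and the ligand WNT5A (-1.38) lower. Of 20 Notch genes the ligand JAG1 (2.04) and the target HES1 (1.41) were higher and 18 were not called. Among all genes 5.9% were called in either direction, and no test sets the WNT or Notch count apart from that share.

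Of 19 Müllerian and serous carcinoma markers 3 were higher, none lower and 16 not called, with a median difference of 0.35 (3.74% of all genes were higher). PAX8, the factor of Müllerian epithelium, measured 9.02 and 9.23 in EFO21 (difference 0.43, not called), and SOX17 (1.56), MECOM (1.63) and the folate receptor FOLR1 (1.54) were higher. WT1 measured 6.40 and 6.14 in EFO21 and differed by -0.52 without a call. HOXB9 (2.07, rank 1), HOXB2 (1.84), HOXB7 (1.57) and HOXB6 (1.28) were the 4 of 27 HOX genes called, all higher (3.74% of all genes). All 4 belong to the HOXB group, so the count does not describe the HOX genes as a family. Of 13 stem-like markers 4 were higher and 2 lower (3.74% and 2.16% of all genes), with a median difference of 0.13. ALDH1A1, a retinal dehydrogenase, measured 11.003 and 11.383 in EFO21, against 3.75 to 12.40 and a median of 5.11 (difference 5.25 ± 0.13, limma, adjusted p = 7e-28, rank 3). PROM1 (CD133) measured 9.47 and 9.50 in EFO21, against 3.52 to 10.09 and a median of 4.07 (difference 4.23). EFO21 was rank 2 for PROM1 behind JHOS4, so that neither gene was beyond every other line. The related dehydrogenase ALDH1A3 (-1.63) and the drug efflux pump ABCB1 (-1.004, -0.99 without array 1 of EFO21 and -0.69 against the lines in RPMI 1640 alone) were the members called lower. FANCF, a Fanconi anaemia core gene, measured 5.14 and 5.44 in EFO21, against 4.95 to 8.83 and a median of 7.34 (difference -1.96), and XRCC2 was higher (1.05, above every other array, but 0.90 against the lines in RPMI 1640 alone).

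Genes of other cell types were checked because several genes above are known from blood vessels and blood cells. Of 9 endothelial markers 3 were higher and none lower (3.74% and 2.16% of all genes). PECAM1 measured 9.36 and 9.66 in EFO21, against 4.35 to 9.79 and a median of 4.64 (difference 4.46 ± 0.13, limma, adjusted p = 3.81e-26). CDH5 measured 8.77 and 8.93 in EFO21 (difference 2.63) and TIE1 7.23 and 7.14 (difference 1.17, and 0.91 against the lines in RPMI 1640 alone). TYKNU had the highest level of all 3 genes. VWF (5.32 and 5.04 in EFO21), KDR (4.76 and 4.97), TEK (4.50 and 4.33) and EMCN (3.42 and 3.15) differed by -0.21 (EMCN) to 0.14 (VWF). Of 10 leukocyte markers CD68 alone was called (1.00, 0.89 without array 2 of EFO21 and 0.75 against the lines in RPMI 1640 alone), and PTPRC (3.61 and 3.43 in EFO21) and CD3D (4.90 and 4.94) were dim. None of 11 fibroblast, 12 granulosa or 12 hepatocyte markers was called. Of 17 neural markers NRCAM (3.22) and L1CAM (1.73) were higher, of 7 mesothelial markers PDPN, which lay above every other array, of 11 muscle markers TNNC1 (1.00, and 0.94 without array 2 of EFO21), and of 17 intestinal markers AGR2 was lower (-1.36). The median level of the 9 endothelial markers was 5.87 in EFO21 and 5.05 in the other lines, and that of the 10 leukocyte markers 4.94 and 4.85. The part of either cell type in the results for EDN1, PLVAP, LCP1 and LAPTM5 was not tested.

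Genes beyond every other array also lay in neighbouring groups along chromosomes. The measured genes were placed in RefSeq order, and a stretch was taken as 5 or more genes beyond every other array in the same direction with at most 40 measured genes between neighbours. This gave 5 stretches of genes below, which held 41 of 107 such genes (38.3%) and 1.96% of all placed genes, and 10 stretches of genes above, which held 100 of 218 (45.9%) and 5.5% of placed genes. The stretches were found with the values in view and carry no test. They were built from genes where EFO21 lay beyond every other array. These shares, the medians and the ranks of EFO21 in a stretch therefore follow in part from that choice. On chromosome 12 a stretch of 72 genes from KDM5A to TPI1 had 10 genes below every other array and a median difference of -0.43, and 60 of the 72 lay below the others' means. It held FOXM1, a mitotic transcription factor (7.71 and 8.02 in EFO21, difference -1.21), and the glycolytic enzymes TPI1 (-1.14, and -0.98 without array 1 of EFO21) and GAPDH. GAPDH measured 13.20 and 13.27 in EFO21, against 13.63 to 14.21 and a median of 13.91. Its difference of -0.68 is under the minimum for a call, though no other array was as low. GAPDH is often used to scale samples, which was not done here.

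Other low stretches were on chromosome 8 from YTHDF3 to GDAP1 (8 of 46 genes below every other array, median -0.31), on chromosome 3 from RAD54L2 to ROBO1 (11 of 119, median -0.49) and on chromosome 2 from GIGYF2 to ATG4B (7 of 71, median -0.20). The one on chromosome 3 held the chromatin remodeler PBRM1 (-1.30) and the transketolase TKT (-1.12, and -0.95 without array 1 of EFO21). EFO21 had the lowest median of all 28 lines in each of these 4 stretches, which the way they were chosen favours. OV7 lay close to it on chromosome 12 (-0.42), TOV112D on chromosome 8 (-0.29) and UWB1.289 on chromosome 2 (-0.19). The fifth, on chromosome 17 from UBE2O to RPTOR, had a median of -0.17, and 4 lines lay lower.

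The densest stretch of high genes was on chromosome 16 from TXNDC11 to LYRM1, where 16 of 51 measured genes lay above every other array. The median difference there was 0.81, against 0.28 in OVCAR5, the next line. VPS35L, a subunit of the retriever complex, measured 10.01 and 10.07 in EFO21, against 5.44 to 9.40 and a median of 8.54 (difference 1.72), and COQ7 (1.41), LYRM1 (1.36), RSL1D1 (1.33) and KNOP1 (1.33) were also called. On chromosome 6, 15 of 143 genes from WRNIP1 to BTN2A1 lay above every other array, with a median of 0.39, and this stretch held EDN1, BMP6, NEDD9 and ID4 of the 20 largest as well as SERPINB1 (2.42). On chromosome 5, 11 of 105 genes from GPX8 to JMY did so (median 0.48, against 0.39 in HEYC2), and on chromosome X 21 of 213 from ALG13 to VBP1 (median 0.09, against 0.08 in OVCAR3), among them CD99L2 (2.21), ZNF185 (2.09), PLS3 (1.70) and DKC1 (1.48). EFO21 had the highest median of the 28 lines in 6 of the 10 high stretches, rank 2 in 3 of them and rank 9 in the one on chromosome 3. High ranks are favoured here too by the way the stretches were chosen. Members of the stretches outside the 20 largest were named after their values were seen. Further genes of the 20 largest in high stretches were MMP7 and NNMT on chromosome 11, ITGB3 on chromosome 17, CLDN11 on chromosome 3, SULF2 on chromosome 20 and JMY. LCP1 was not among the genes that formed the stretches, and neither were SPPL3, NEK9, MAP3K1 or AVL9. Genes that go the other way can still lie between the ends of a stretch. The one from GPX8 to JMY also held 2 genes called lower.

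**Figure D5:**
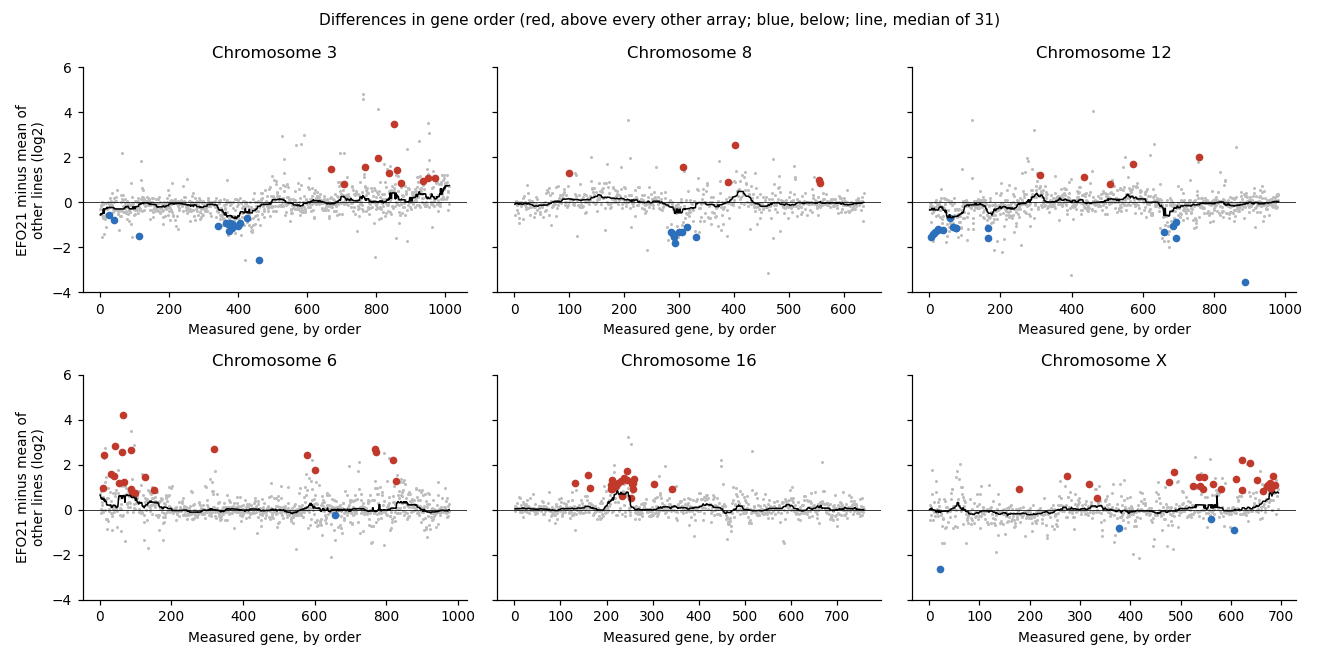
Difference of EFO21 from the mean of the other lines (y axis, log2) for measured genes in their order along 6 chromosomes (x axis, gene number); red points lie above and blue points below every other array, grey points are all genes and the black line is the running median of 31 genes. Blue points crowd at the start of chromosome 12 and in the middle of chromosomes 3 and 8, and red points on chromosome 16, at the start of chromosome 6 and at the end of chromosome X.

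Some of the largest differences were shared with a few other lines and fell under no list, and these were named after their values were seen. In all, 42 genes were called higher by 3 or more and 6 lower by 3 or more. TNFSF18, a ligand of T cell costimulation, measured 10.15 and 9.15 in EFO21, against 3.16 to 9.85 and a median of 3.64 (difference 5.50, the largest of all). SPP1 (osteopontin) measured 12.59 and 12.77 in EFO21, against 4.58 to 14.23 and a median of 6.78 (difference 5.09). Ceruloplasmin CP measured 10.82 and 10.95 in EFO21, against 3.23 to 10.79 and a median of 4.80 (difference 4.84 ± 0.43), and complement C3 measured 11.24 and 11.29, against 4.62 to 11.72 and a median of 6.37 (difference 4.19). On the low side stood TRPS1, a GATA-type repressor, with 4.84 and 4.15 in EFO21, against 4.81 to 9.95 and a median of 7.67 (difference -3.15), and the guidance ligand SEMA3C (-3.13).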

How the data were processed

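The samples are 56 Affymetrix Human Gene ST arrays of 28 ovarian cancer cell lines, 2 for each line, and the second array of JHOS4 carries the label JHSO4. The deposited values are log2 intensities which, per the labels, the authors made by RMA (background correction, quantile normalization and summary of probes) with affy 1.42.3. They ran from 1.35 to 14.89, with array medians of 5.96 to 6.31. Of 28869 probe sets, 19310 list 1 gene, 1752 list several and 7807 list none. The 19310 gave 18377 genes, of which 685 had several probe sets and kept the one with the highest mean. Symbols and gene order came from RefSeq (GRCh38.p14), in which 19279 of the 19310 matched by gene ID.

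A mean for each line was fitted in limma 3.58.1 (R 4.3.3) on 53 arrays, with the trend and robust options (statmod 1.5.0). The contrast was EFO21 minus the mean of the 27 other line means, with Benjamini-Hochberg adjustment. Genes beyond every other array were counted with Python 3.11.15 and pandas 2.3.3 and have no test. The code was tested on simulated data. Named were EPCAM, CDH1, GRHL2, the 20 largest called differences above and the 20 below every other array, and called or defining members of the lists. The members and the lists were chosen with earlier results of these data known. Alternatives were all 56 arrays, either EFO21 array left out, a replicate block, the lines in RPMI 1640 alone, 1 value for each line, HEY and HEYC2 as 1 line, further quantile normalization, a filter on dim genes (under 6 in log2), the mean over probe sets, limma without those options, no minimum difference and, added after seeing the data, a fit without FUOV1 and OV7.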

Additional observations from a re-analysis of the deposited data

How the results depend on the processing

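With 1 value for each line, which tests EFO21 against the spread between lines, 13 genes were higher and 1 lower, and the differences of EPCAM (1.95), CDH1 (-1.46) and GRHL2 (-1.17) each had an adjusted p of 1 in limma. The fit with this setting gave 17 genes at an adjusted p under 0.05 and 645 at an unadjusted p under 0.05. Without a minimum difference 4045 genes were higher and 3613 lower. Leaving out either EFO21 array gave 659 to 767 genes higher and 395 to 463 lower, 354 to 375 genes above and 291 to 315 below every other array, and differences of 1.75 to 2.14 for EPCAM. The EPCAM call was lost without replicate 2 (1.75, adjusted p = 0.0744). The CDH1 difference was then -1.49 to -1.44 and that of GRHL2 -1.30 to -1.05. Against the lines in RPMI 1640 alone 856 genes were higher, of which 631 were called in the fit against all lines, and 451 lower, of which 314 were. In that setting 957 genes lay above and 603 below every other array, where there are fewer arrays to exceed, and GRHL2 differed by -0.88. Taken over line means, 455 genes lay above and 432 below every other line. With all 56 arrays 667 genes were higher and 323 lower, and 180 lay above and 59 below every other array. The further quantile normalization gave 628 higher and 412 lower. The other settings changed these counts by less than 1.5 times, and the replicate block, the limma options, the minimum and the joining of HEY and HEYC2 give no other value for the genes beyond every other array.

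Of 224 other genes named, 186 were called, and 172 of those calls were lost with 1 value for each line, 14 against the lines in RPMI 1640, 12 with all 56 arrays, 9 without replicate 1 and 11 without replicate 2. Against the lines in RPMI 1640 the lost calls were those of ABCB1 (-0.69), CDCP1 (-0.69), CDH3 (-0.89), PRSS8 (-0.75), ITGB6 (-0.58), WNT5A (-0.96), GREM1 (-0.70), MSMO1 (-0.75), FASN (-0.79), TKT (-0.95), IL1B (0.95), TIE1 (0.91), CD68 (0.75) and XRCC2 (0.90), all of which kept their direction under the minimum of 1. ALDH1A3 (-0.92) and MECOM (0.89) lost theirs with the mean over probe sets. None reversed its direction in any setting run. The fit with a replicate block gave 687 genes higher and 398 lower and changed none of the calls of named genes. Arrays that share a number did not deviate together as a rule. The correlation of EFO21 with other lines ran from -0.178 to 0.195 (median -0.046), and 61 of 300 pairs of lines were over 0.1. The numbers thus gave no common pairing over the lines, and batches that follow other numbers were not tested. With 2 arrays of EFO21, and with no record of separate cultures, the precision of each value is that of 1 line.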
